A study of Mus musculus with 4 samples.

Results

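The DNA replication machinery was followed here as 39 genes that copy the genome in S phase: the factors that load and fire origins, the polymerases and primase, the sliding clamp and its loader, the enzymes that supply nucleotides, and factors that rebuild chromatin behind the fork. The members came from a list of symbols chosen with earlier results of these data known. Each was measured by the probe sets annotated to its symbol alone. Of the 39 members, 38 were measured among 18193 genes in all, and Chaf1a, the large subunit of the histone chaperone CAF-1, was not analysed here because no probe set was annotated to it alone.

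The 4 samples came from mouse liver tumors that grew from liver progenitor cells placed in the livers of recipient mice. All 4 carried the oncogene HrasV12 and a tet-off hairpin against p53, so that the hairpin is made without doxycycline and p53 returns when the drug is given. The 2 p53 off samples had 0 days of doxycycline and the 2 p53 on samples had 8 days, given in the chow. The sources used here do not give the promoter behind the oncogene, or the mouse strain or age. They also do not say whether the samples of a group came from separate mice or tumors. The p-values therefore measure only how far these samples spread, and that spread may be technical. No sample of tumors without the hairpin but with doxycycline was among the 4, so the return of p53, the drug and the 8 days cannot be told apart.

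Each value below is a deposited log2 intensity, so a difference of 1 is a 2-fold change, and each difference is p53 on minus p53 off. A gene was represented by its brightest probe set, and it was called when limma's adjusted p over all 18193 genes was under 0.05. Intensities of different genes are not compared with each other, because probe sets differ in brightness. The arrays measure RNA and not DNA synthesis.

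Replication starts from origins that are loaded in G1 with the origin recognition complex, Cdc6, Cdt1 and the MCM helicase, and fired in S phase when kinases recruit Cdc45 and the GINS complex to that helicase. Primase and polymerase alpha lay the primers, polymerases epsilon and delta extend them on the clamp PCNA, and flap endonuclease and ligase join the lagging strand. Many of these genes are transcribed under E2F factors at the start of S phase. An adult liver has few dividing cells and low levels of this machinery.

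The 4 arrays had like scales, with medians over genes between 8.19 and 8.30. Of 8 hepatocyte markers, 6 had probe sets in the dimmest 40% of genes (under 7.63), albumin among them with 7.07 and 7.06 with p53 off and 7.39 and 6.96 with p53 on. In that list Serpina1c rose, by 0.55 ± 0.14 (SE, adjusted p = 0.0406), Ahsg fell by 0.45 ± 0.12 (adjusted p = 0.0405), Ttr read between 8.79 and 8.87 on every array, and p53 on replicate 1 stood apart for Cyp2e1 (9.71, against 7.39 in replicate 2 and 7.27 and 7.24 with p53 off). Of 6 progenitor and biliary markers, Krt19 (-1.04, adjusted p = 0.00598) and Sox9 (-0.81, 0.0069) fell and Epcam rose (0.52, 0.00531). Prom1 (0.22, 0.186), Krt7 (0.10, 0.561) and Afp were not called, and Afp, a fetal liver marker, read 9.16 and 9.15 with p53 off and 8.47 and 5.33 with p53 on. Keratins 8 and 18 of simple epithelium fell by 1.36 ± 0.10 (SE, adjusted p = 0.000999) and 1.61 ± 0.10 (adjusted p = 0.00069). Over the 7 epithelial markers, 6 fell and 1 rose, and their mean log2 level was 11.4 and 11.5 with p53 off and 10.5 in both p53 on samples. All 5 proliferation markers fell, from a mean level of 10.4 and 10.6 to 9.34 and 9.36. All 8 fibroblast and stellate markers rose (11.6 and 11.4 to 12.7 and 12.6), as did all 7 endothelial markers (8.76 and 8.73 to 9.41 and 9.75), 6 of 8 macrophage markers (10.1 and 10.2 to 10.8 and 10.7) and 3 of 6 T and NK markers (6.99 and 6.95 to 7.52 and 7.85). No B and plasma or erythroid marker of 4 each was called. These shifts run beside every fall described below, their part in it was not tested, and in bulk tissue fewer cycling tumor cells and less RNA per cell cannot be told apart.

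Of the 38 measured members, 27 fell with p53 on and 0 rose. Over all genes, 2673 of 18193 (14.7%) fell and 2550 (14%) rose. The members' median change was -0.66 against 0.02 over all genes, with a range from -1.64 for Rrm2 to 0.09 for Pola2, and 34 of 38 differences were below zero. In 30 members both p53 on values lay below both p53 off values, which held for 30.4% of all genes, and in 1, Gins3, both lay above. A fall of more than 1 on the log2 scale was called for 7 members, Rrm2, Dbf4, Orc6, Tk1, Mcm4, Mcm6 and Uhrf1, and for 2.55% of all genes.

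**Figure D1:**
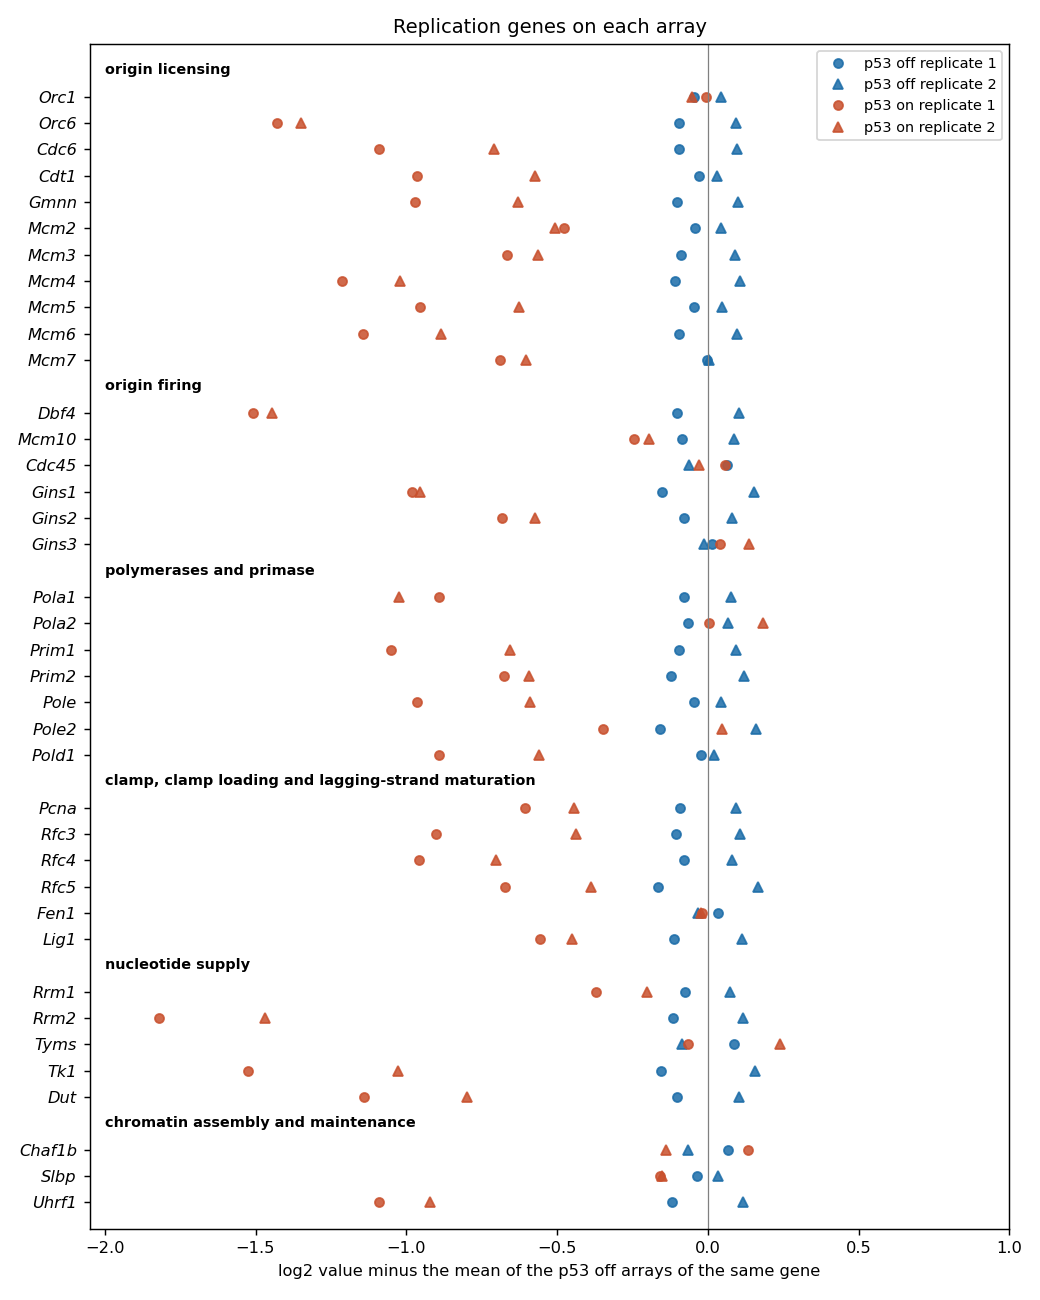
Log2 intensity of the 38 measured members (1 point per array, relative to the gene's p53 off mean) in the 2 p53 off and 2 p53 on arrays, ordered by step of replication. The p53 on values of most members lie below zero, those of Orc1 and Fen1 only just. Those of Cdc45, Pole2, Tyms and Chaf1b lie on both sides of it, and those of Gins3 and Pola2 above it.

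**Figure D2:**
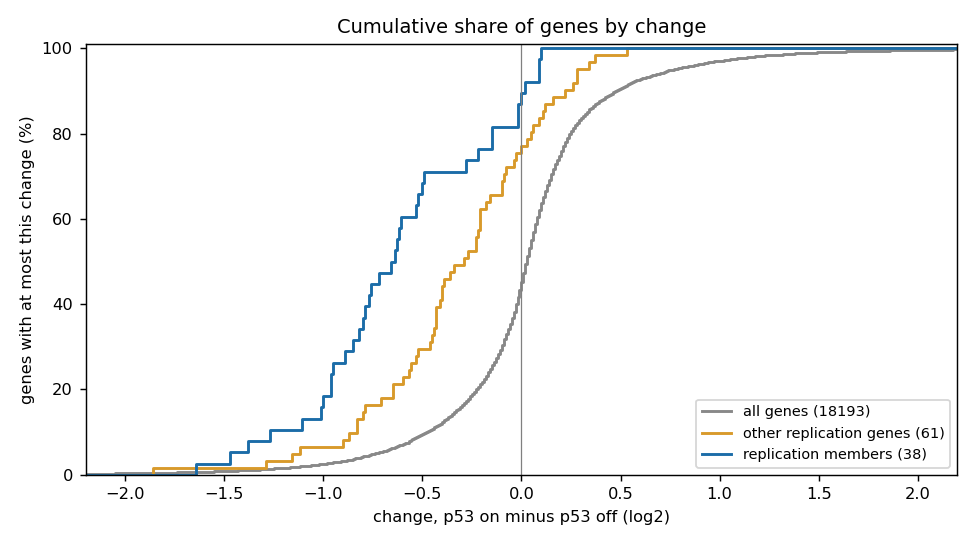
Cumulative share of genes by change, p53 on minus p53 off in log2 units, for the 38 members, the 61 other replication genes and all 18193 genes, a few of which lie beyond the axis. The members' curve is shifted to the left, with a median of -0.66 against -0.29 for the other replication genes and 0.02 for all genes.

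The count of members that fell rests in part on 1 sample, as does the count over all genes, given in a later section. Without p53 off replicate 2, 13 of the 27 calls were left, while without p53 off replicate 1, p53 on replicate 1 or p53 on replicate 2 the counts were 24, 26 and 27. The members' median change stayed between -0.79 and -0.53 in every alternative tried. The genes whose calls were lost are named with their step.

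Promoter sequences show what several members share. Of 33 members with a promoter in the RefSeq table (GRCm38.p6, 250 bases before the start to 50 after it), 14 (42.4%) held at least 1 E2F word, TTTGGCGC, TTTCCCGC, TTTGCCGC or TTTCGCGC on either strand, against 704 of 27025 genes (2.60%). The windows below are written 5′ to 3′ on the gene's strand, with E2F words and the CCAAT box (CCAAT or ATTGG) in capitals. Those of Mcm6, Mcm5, Mcm7, Cdc6 and Pola1 come from genes that fell, and those of Orc1 and Gins3 from genes that were not called.
Mcm6 (chr1:128359706-128359860, minus strand): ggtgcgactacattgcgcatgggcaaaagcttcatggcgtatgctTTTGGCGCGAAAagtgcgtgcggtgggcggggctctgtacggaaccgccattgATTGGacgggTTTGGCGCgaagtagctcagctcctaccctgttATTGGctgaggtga
Mcm5 (chr8:75109311-75109412, plus strand): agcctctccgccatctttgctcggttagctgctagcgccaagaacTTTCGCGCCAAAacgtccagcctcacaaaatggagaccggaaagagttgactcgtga
Mcm7 (chr5:138171996-138172093, minus strand): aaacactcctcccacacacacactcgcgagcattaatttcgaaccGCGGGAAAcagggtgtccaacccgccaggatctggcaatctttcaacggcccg
Cdc6 (chr11:98907968-98908065, plus strand): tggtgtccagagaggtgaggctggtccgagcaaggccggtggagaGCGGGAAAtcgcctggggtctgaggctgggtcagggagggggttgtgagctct
Pola1 (chrX:93632241-93632338, minus strand): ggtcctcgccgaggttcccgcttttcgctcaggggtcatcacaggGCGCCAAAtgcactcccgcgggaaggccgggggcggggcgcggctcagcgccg
Orc1 (chr4:108579382-108579453, plus strand): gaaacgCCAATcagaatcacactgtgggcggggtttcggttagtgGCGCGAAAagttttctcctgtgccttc
Gins3 (chr8:95633473-95633558, plus strand): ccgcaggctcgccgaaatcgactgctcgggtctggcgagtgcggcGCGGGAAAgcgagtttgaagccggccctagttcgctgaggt
All 7 windows lie upstream of the annotated start. The Mcm6 window holds 3 E2F words, of which the first and second overlap in TTTGGCGCGAAA, 110 and 106 bases upstream, and the third lies 47 bases upstream. The Mcm5 window holds an overlapping pair, TTTCGCGCCAAA, 153 and 149 bases upstream. In Cdc6 and Pola1 the word starts 138 bases upstream, in Mcm7 165, in Gins3 41 and in Orc1 27.

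Members fell both with and without an E2F word. Among the measured members, 11 of 14 with a word fell (median change -0.70) and 10 of 18 without one fell (median -0.51). Besides Orc1 and Gins3, the member that held a word and was not called was Pole2. Over all measured genes with a promoter, 122 of 550 with a word fell (22.2%), and 2010 of 13902 without one (14.5%). The CCAAT box was in a promoter of 57.6% of the members and 41.1% of all genes. The CHR element TTTGAA, a motif of genes expressed late in the cell cycle, was in a promoter of 15.2% and 20.2%. These are matches of letters, given with no test, and E2F binding was not measured.

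Of the 11 members of origin licensing, 10 fell, with a median change of -0.79. Orc6, a subunit of the origin recognition complex, read 10.04 and 10.23 with p53 off and 8.71 and 8.79 with p53 on. It fell by 1.39 ± 0.09 (SE, n = 2 against 2), or 2.62-fold, with an adjusted p of 0.000791, and the groups lay far apart. Mcm4, a subunit of the helicase, read 11.77 and 11.98 with p53 off and 10.66 and 10.85 with p53 on, and fell by 1.12 ± 0.11 (2.17-fold, adjusted p = 0.00206). Mcm6, another subunit, read 10.89 and 11.08 against 9.84 and 10.10, and fell by 1.01 ± 0.12 (2.02-fold, adjusted p = 0.00332). In both genes the higher p53 on sample stayed below the lower p53 off sample.

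All 6 subunits of the core helicase, Mcm2 to Mcm7, fell together, and the other subunits did so by 0.49 ± 0.08 (Mcm2, adjusted p = 0.00756), 0.62 ± 0.09 (Mcm3, 0.0073), 0.79 ± 0.12 (Mcm5, 0.00811) and 0.65 ± 0.07 (Mcm7, 0.0032). The loader Cdc6 fell by 0.90 ± 0.15 (adjusted p = 0.00902), and its partner Cdt1 fell by 0.77 ± 0.14 (0.0122). Gmnn, or geminin, which binds Cdt1 and blocks a second round of loading, fell by 0.80 ± 0.14 (0.011), so loader and inhibitor were lower side by side. Orc1, the subunit of the origin complex that is lost and remade each cycle, was not called: it read 8.55 and 8.64 with p53 off and 8.59 and 8.54 with p53 on (-0.03 ± 0.08, adjusted p = 0.823), and the groups overlapped. Without p53 off replicate 2 the calls of Cdc6, Cdt1, Gmnn, Mcm2, Mcm3 and Mcm5 were lost, with adjusted p of 0.0659, 0.082, 0.0762, 0.0668, 0.0542 and 0.0624. That of Cdt1 was also lost without p53 off replicate 1 (0.0557). Over the alternatives the adjusted p of these genes reached down to 0.00164, 0.00143, 0.00256, 0.0046, 0.00423 and 0.0016 in the same order. Orc6, Mcm4, Mcm6 and Mcm7 were called in every alternative fit.

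Among 7 further licensing genes, 3 fell and 2 rose. The origin complex subunits Orc4 and Orc2 fell by 0.80 ± 0.11 (adjusted p = 0.0052) and 0.60 ± 0.07 (0.00343). Orc3 (-0.04, adjusted p = 0.737) and Orc5 (0.05, 0.645) of that complex, named after their values were seen, were not called. Mcm8, a helicase relative with a role in recombination, fell by 0.44 ± 0.08 (0.0133). Its partner Mcm9 rose by 0.34 ± 0.08 (0.0324), and Mcmbp, which binds MCM subunits outside chromatin, rose by 0.36 ± 0.07 (0.0169). Both rises were lost without either p53 off sample (Mcm9 0.0871 and 0.193, Mcmbp 0.0983 and 0.0936, without replicate 1 and 2) and with probe sets averaged (0.343 and 0.212), and that of Mcm9 also without p53 on replicate 1 (0.0922) and after quantile normalization (0.0571) or median centring (0.0674). The fall of Mcm8 lost its call without p53 off replicate 1 or 2 (-0.43 and -0.44). That of Orc4 lost it with probe sets ending in _a_at, _s_at or _x_at left out (-0.06, adjusted p = 0.747). Orc2 was called in every alternative fit.

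In origin firing 3 of 6 members fell, with a median change of -0.42. Dbf4, the regulatory subunit that activates the kinase Cdc7 at origins, read 10.25 and 10.46 with p53 off and 8.85 and 8.91 with p53 on. It fell by 1.48 ± 0.10, or 2.78-fold (adjusted p = 0.000749), with close agreement of the p53 on samples. Gins1, a subunit of the GINS complex that joins Cdc45 to the helicase, read 8.27 and 8.58 against 7.44 and 7.47, and fell by 0.97 ± 0.12 (1.96-fold, adjusted p = 0.00346). Gins2, of the same complex, read 9.87 and 10.03 against 9.27 and 9.38, and fell by 0.63 ± 0.09 (1.55-fold, adjusted p = 0.00637). The groups lay apart in all 3 genes, and all 3 were called in every alternative fit.

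The other 3 firing members were not called. Gins3, a further subunit of GINS, read 7.96 and 7.93 with p53 off and 7.98 and 8.08 with p53 on (0.09 ± 0.08, adjusted p = 0.458), the 1 member whose p53 on values lay above both p53 off values. Mcm10, which helps start unwinding and holds polymerase alpha at the fork, read 9.03 and 9.20 against 8.87 and 8.92 (-0.22 ± 0.09, adjusted p = 0.126), apart but not past the threshold. Cdc45, the helicase partner, read 8.77 and 8.65 against 8.77 and 8.68 on its brightest probe set (0.01 ± 0.08, adjusted p = 0.927), so its groups overlapped, while its other probe set was called lower, as given below.

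Of 9 further firing genes, 5 fell and 0 rose. Topbp1, a scaffold that brings firing factors together and activates the ATR kinase, fell by 0.91 ± 0.09 (adjusted p = 0.00206). Cdc7, the kinase that Dbf4 activates, fell by 0.58 ± 0.08 (0.00451), so both partners were lower. Rif1, which opposes that kinase through a phosphatase and delays late origins, fell by 0.87 ± 0.16 (0.0119). Named after its value was seen, Gins4, the remaining GINS subunit, fell by 0.53 ± 0.12 (0.023). Of the genes named here, Rif1 (-0.82 and -0.93) and Gins4 (-0.63 and -0.44) lost their calls without p53 off replicate 1 or 2. The call of Rif1 was also lost with probe sets ending in _a_at, _s_at or _x_at left out (-0.32, adjusted p = 0.143).

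**Figure D3:**
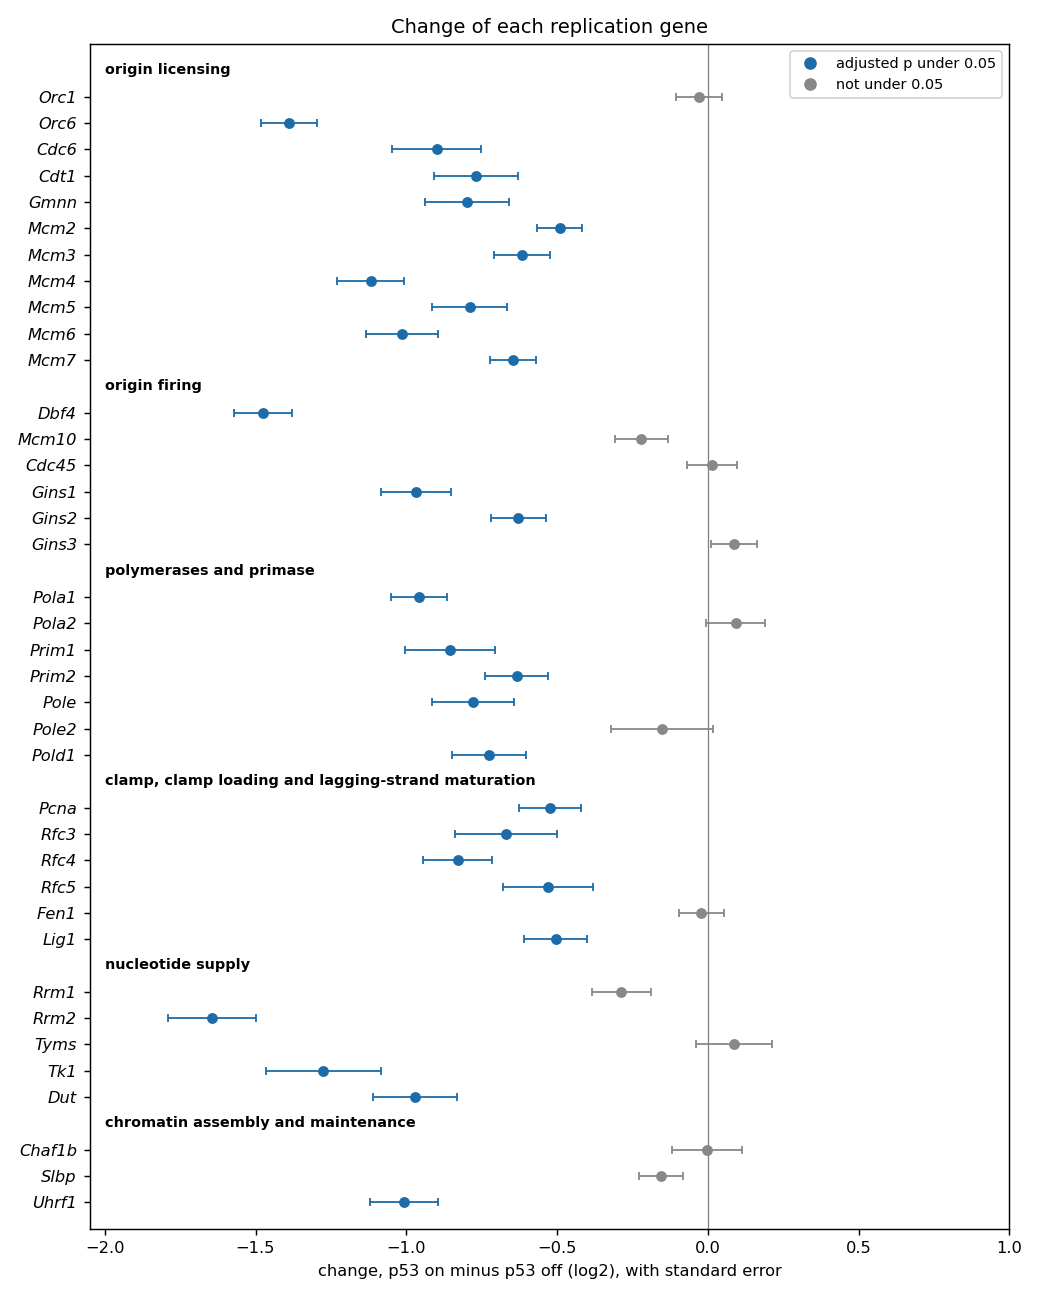
Change of each of the 38 members, p53 on minus p53 off in log2 units with bars of 1 SE (n = 2 arrays a group), grouped by step, with called members in blue. Rrm2 (-1.64), Dbf4 (-1.48) and Orc6 (-1.39) lie farthest to the left, and 11 members are not called.

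Of the 7 polymerase and primase members, 5 fell, with a median change of -0.72. Pola1, the catalytic subunit of polymerase alpha, read 9.15 and 9.31 with p53 off and 8.34 and 8.20 with p53 on, and fell by 0.96 ± 0.09 (1.94-fold, adjusted p = 0.00192). Prim1, the catalytic subunit of primase, read 9.85 and 10.04 against 8.89 and 9.29, and fell by 0.85 ± 0.15 (1.81-fold, adjusted p = 0.0112). Pole, the catalytic subunit of the leading-strand polymerase epsilon, read 8.41 and 8.50 against 7.48 and 7.86, and fell by 0.78 ± 0.14 (1.72-fold, adjusted p = 0.0111). The groups lay apart in all 3, and p53 on replicate 1 was the lower of its group for Prim1 and Pole but not for Pola1. The large primase subunit Prim2 fell by 0.63 ± 0.10 (adjusted p = 0.00927), and Pold1, the catalytic subunit of the lagging-strand polymerase delta, by 0.72 ± 0.12 (0.0101).

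The accessory subunits of 2 polymerases were not called. Pola2, the second subunit of polymerase alpha, read 9.17 and 9.30 with p53 off and 9.24 and 9.42 with p53 on (0.09 ± 0.10, adjusted p = 0.538). Pole2, that of polymerase epsilon, read 8.36 and 8.68 against 8.17 and 8.57 (-0.15 ± 0.17, adjusted p = 0.566). Both overlapped between groups. Of the accessory subunits of polymerase delta, Pold2 fell by 1.17 ± 0.08 (0.000749) and Pold4 fell by 0.83 ± 0.08 (0.00199), while Pold3, named after its value was seen, was not called (-0.03 ± 0.08, adjusted p = 0.798). Pold2 and Pold4 were the 2 that fell among 8 further polymerase and single-strand binding genes, none of which rose, and both were called in every alternative fit. The calls of Prim1, Prim2, Pole and Pold1 were lost without p53 off replicate 2 (adjusted p of 0.0783, 0.0543, 0.078 and 0.0715), and without p53 off replicate 1 that of Pold1 (0.0503). Their lowest adjusted p over the alternatives were 0.00184, 0.00564, 0.00152 and 0.00173. Pola1 was called in every alternative fit.

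Of the 6 members for the clamp, its loader and the joining of the lagging strand, 5 fell, with a median change of -0.53. Rfc4, a subunit of the replication factor C clamp loader, read 8.97 and 9.13 with p53 off and 8.09 and 8.34 with p53 on, and fell by 0.83 ± 0.11 (1.78-fold, adjusted p = 0.00545). Rfc3, of the same loader, read 8.35 and 8.56 against 7.55 and 8.02, and fell by 0.67 ± 0.17 (1.59-fold, adjusted p = 0.0358). Rfc5 read 9.41 and 9.74 against 8.90 and 9.19, and fell by 0.53 ± 0.15 (1.44-fold, adjusted p = 0.0498). Rfc5 was the closest of the called members to the threshold, and Rfc3 had the more uneven p53 on samples of the pair. The loader subunits Rfc1 (-0.10, adjusted p = 0.463) and Rfc2 (-0.22, 0.211), outside the list and named after their values were seen, were not called. Pcna, the sliding clamp, fell by 0.52 ± 0.10 (1.44-fold, adjusted p = 0.0159), and Lig1, the ligase that seals lagging-strand fragments, by 0.50 ± 0.10 (1.42-fold, 0.0185). Fen1, the flap endonuclease that trims those fragments, was not called on its brightest probe set, with 11.49 and 11.42 against 11.44 and 11.43 (-0.02 ± 0.07, adjusted p = 0.866).

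Within this step Rfc4 alone was called in every alternative fit. Without p53 off replicate 2 the calls of Pcna, Rfc3, Rfc5 and Lig1 were lost (adjusted p of 0.103, 0.187, 0.229 and 0.105). That of Rfc3 was also lost without p53 off replicate 1 (0.0789), that of Rfc5 without p53 on replicate 1 (0.116), with spike-in scaling (0.0757) and with array weights (0.0512), and the change of Rfc3 was -0.44 without p53 on replicate 1. Their lowest adjusted p over the alternatives were 0.00849 (Pcna), 0.00349 (Rfc3), 0.0178 (Rfc5) and 0.011 (Lig1). Among 16 further genes of clamp loading, maturation and the fork, 9 fell and 1 rose. Rnaseh2a, the catalytic subunit of the nuclease that removes RNA from DNA, fell by 1.30 ± 0.11 (adjusted p = 0.00121), and Dscc1, of an alternative clamp loader, by 0.53 ± 0.13 (0.0334). The fork protection partners parted: Tipin fell by 1.12 ± 0.12 (0.00232), and Timeless rose by 0.52 ± 0.08 (0.00636). The rise of Timeless was not called without p53 off replicate 2 (0.0545) or with the mean of its probe sets (0.18, adjusted p = 0.161). The fall of Dscc1 was lost without p53 off replicate 1 or 2 (0.109 and 0.166), with spike-in scaling (0.0652) and with the mean of its probe sets (-0.27, 0.0976).

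Nucleotide supply held the largest fall of any member. Of its 5 members, 3 fell, with a median change of -0.97. Rrm2, the small subunit of ribonucleotide reductase whose level limits the making of deoxynucleotides in S phase, read 11.61 and 11.84 with p53 off and 9.91 and 10.26 with p53 on. It fell by 1.64 ± 0.15, or 3.13-fold (adjusted p = 0.00149), and ranked 123 of 18193 genes from the largest fall. Tk1, the thymidine kinase of dividing cells, read 9.50 and 9.81 against 8.13 and 8.63, and fell by 1.28 ± 0.19 (2.42-fold, adjusted p = 0.0069). Dut, the enzyme that removes dUTP and makes the precursor of thymidylate, read 9.95 and 10.15 against 8.91 and 9.25, and fell by 0.97 ± 0.14 (1.96-fold, adjusted p = 0.0061). In all 3 the groups lay apart, with p53 on replicate 1 the lower of its group. Rrm2 and Tk1 were called in every alternative fit, and the exception for Dut is given with its probe sets.

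The large subunit Rrm1, which pairs with Rrm2, read 9.73 and 9.88 with p53 off and 9.43 and 9.60 with p53 on (-0.29 ± 0.10, adjusted p = 0.0834), apart but not past the threshold. It passed when each array was centred on its median (adjusted p = 0.0408). Tyms, or thymidylate synthase, had 4 probe sets of its own, all among the dimmest 40%, and the brightest read 6.11 and 5.93 against 5.95 and 6.26 (0.09 ± 0.13, adjusted p = 0.665). A further probe set is annotated to both Tyms and a pseudogene and is left out by the rule on symbols. Of 11 other nucleotide supply genes 2 fell and 0 rose: Ctps, which makes CTP, by 0.80 ± 0.09 (0.00255), and Dctpp1, which clears dCTP, by 0.46 ± 0.12 (0.0428). The call of Dctpp1 was lost without p53 off replicate 1, p53 off replicate 2 or p53 on replicate 1 (0.181, 0.0715 and 0.104), with the replicate block (0.0905) and with spike-in scaling (0.106). Named after its value was seen, Rrm2b, the reductase subunit known as a p53 target, read 9.46 and 9.50 against 9.25 and 8.98 (-0.36 ± 0.11, adjusted p = 0.0582), not called, and it passed without p53 on replicate 1 (0.0128), with median centring (0.04) and with dim genes left out (0.043).

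In chromatin assembly and maintenance 1 of 3 measured members fell, with a median change of -0.16. Uhrf1, which reads methylated DNA at the fork and brings in the maintenance methyltransferase, read 10.10 and 10.34 with p53 off and 9.13 and 9.30 with p53 on. It fell by 1.01 ± 0.11 (2.01-fold, adjusted p = 0.00282) and was called in every alternative fit. Slbp, which binds the stem loop of histone mRNAs, read 10.88 and 10.95 against 10.76 and 10.76 (-0.16 ± 0.07, adjusted p = 0.179), apart but not called. Chaf1b, the middle subunit of CAF-1, read 7.81 and 7.68 against 7.87 and 7.60 on its brightest probe set (-0.0034 ± 0.12, adjusted p = 0.989), and its groups overlapped.

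Of 10 further chromatin assembly genes, 7 fell and 0 rose. Hells, a chromatin remodeler needed for DNA methylation, fell by 1.87 ± 0.07 (adjusted p = 0.000311) on its brightest probe set, and its change was -0.83 (adjusted p = 0.00263) with its probe sets averaged. Nasp, a histone chaperone, fell by 0.84 ± 0.13 (0.00781), and Atad2, a bromodomain ATPase, by 0.71 ± 0.12 (0.00986). The fall of Atad2 lost its call without p53 off replicate 2 (-0.61). That of Nasp lost it with probe sets ending in _a_at, _s_at or _x_at left out (0.10, adjusted p = 0.593). It was also lost with the mean of the probe sets of Nasp (-0.19, 0.0732). Over all 61 measured replication genes outside the list, 28 fell and 3 rose, with a median change of -0.29. Without p53 off replicate 2, 13 falls and 0 rises were left. The share that fell, 45.9%, lay between the members' 71.1% and the 14.7% of all genes.

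The probe sets of a member did not always tell the same story. In a separate fit over 45037 probe sets, 46 of the members' 84 probe sets were called lower and 0 higher, where 11.5% of all probe sets were called lower. Of 24 dim probe sets 4 were called, and of the 60 others 42. At least 1 probe set was called in 29 of 38 members, and in 17.9% of all genes. Of the 30 members with several probe sets, 8 had all of them called, 14 some and 8 none. The members with a single probe set were called in 7 of 8 cases, and Rfc5 was not (adjusted p = 0.0564).

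**Figure D4:**
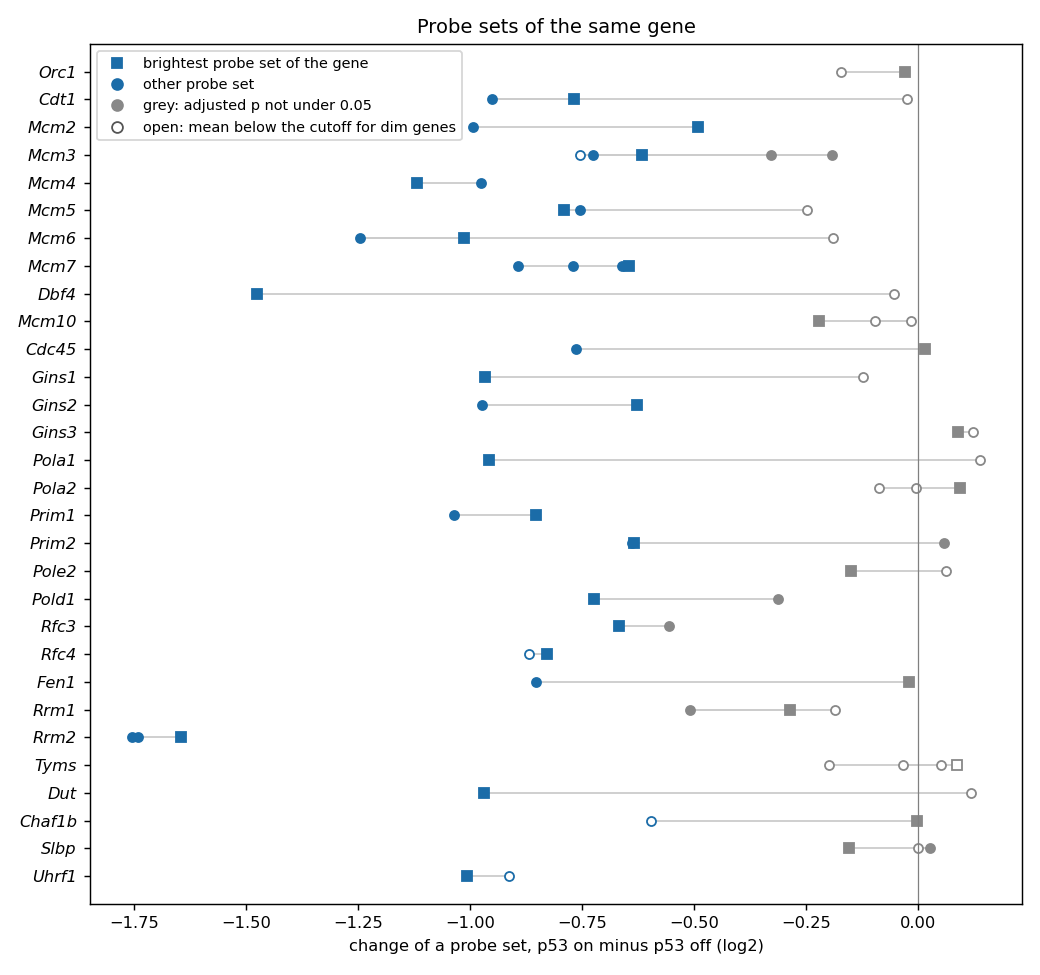
Change of each probe set of the 30 members with several, p53 on minus p53 off in log2 units, 1 line per gene, with squares for the brightest probe set, open symbols for dim ones and blue for those called lower. Cdc45, Fen1 and Chaf1b have a brightest probe set near zero and another one, called lower, at -0.76, -0.85 and -0.60.

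For 3 genes the brightest probe set was flat and another fell. The other probe set of Cdc45 read 8.69 and 9.01 with p53 off and 8.08 and 8.10 with p53 on, and fell by 0.76 ± 0.12 (adjusted p = 0.0089 over probe sets). The other probe set of Fen1 read 9.35 and 9.52 against 8.38 and 8.79, and fell by 0.85 ± 0.15 (adjusted p = 0.0136). That of Chaf1b, a dim one, read 7.56 and 7.72 against 6.97 and 7.11, and fell by 0.60 ± 0.09 (adjusted p = 0.00948). The brightest probe set of Fen1 carries the array maker's suffix for likely cross-hybridization, and those of Cdc45 and Chaf1b do not. With each gene's probe sets averaged in place of the brightest, all 3 were called, with changes of -0.37 (Cdc45, adjusted p = 0.0135), -0.44 (Fen1, 0.0179) and -0.30 (Chaf1b, 0.0219). The count of members that fell was then 29, of which 26 were also called on the brightest probe set, and Rfc3 was lost (0.0585).

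Other members kept their fall on several probe sets. The 3 of Rrm2 fell by 1.64, 1.75 and 1.74, all 4 of Mcm7 fell, by 0.65 to 0.89, and both of Mcm4 fell, by 1.12 and 0.98. Both probe sets of Prim1 (-0.85 and -1.04) and of Uhrf1 (-1.01 and -0.91) fell too. For Mcm2 the second probe set fell farther than the brightest (-0.99 against -0.49), and for Gins2 likewise (-0.97 against -0.63). The second probe sets of Dbf4 (-0.05), Pola1 (0.14), Gins1 (-0.12) and Dut (0.12) were dim and not called, and the third of Prim2 (0.06) was not called either. Averaged over probe sets the changes of Dbf4, Gins1, Pola1 and Prim2 came to -0.77, -0.55, -0.41 and -0.41 and were still called. With probe sets ending in _a_at, _s_at or _x_at left out where a gene had another, 23 members were called. Dut turned to 0.12 on its dim probe set (adjusted p = 0.444). Mcm3 (-0.19, adjusted p = 0.269), Pold1 (-0.31, 0.221) and Rfc3 (0.0973) were not called. The brightest probe sets of Dut and Rfc3 end in _a_at, and those of Mcm3 and Pold1 in _x_at. Fen1 kept its _x_at probe set, because its other one ends in _a_at. No probe set was called for Orc1, Mcm10, Gins3, Pola2, Pole2, Rrm1, Slbp and Tyms, which have 2 to 4 probe sets each.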

How the data were processed

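Total RNA of 4 liver tumor samples had been amplified, biotin-labelled and hybridized to 1 Affymetrix mouse array each, per the labels' protocols. The deposited table holds log2 values, which the authors made with RMA, a method that corrects background, quantile-normalizes and summarises probes, per the submitters' processing notes, where limma 3.14.4 is named too. It flags no probe set as absent, so a dim one reads near background and its change can be compressed. The annotation behind these steps is not given in the sources used here. The values run from 4.66 to 14.9.

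Of 45101 probe sets, 64 were controls, and GEO's platform annotation gave exactly 1 symbol to 34945, several to 932 and none to 9160. For 34741 probe sets the gene ID was found in a RefSeq table, and 0 symbols were updated. Each gene took the probe set of 1 symbol that was brightest on average over the 4 arrays, which gave 18193 genes with no filter on dim ones. The gene targeted by the hairpin was not analysed here.

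Groups and replicate numbers came from the labels. The difference p53 on minus p53 off was estimated by lmFit and tested by eBayes (limma 3.58.1 and statmod 1.5.0 under R 4.3.3), with 2 residual and 5.47 moderated degrees of freedom and Benjamini-Hochberg adjustment over all genes. Probe sets (45037) were fitted separately. A permutation test of 2 against 2 arrays cannot pass the threshold of 0.05, so none was used. On simulated data of 18193 genes, with 50 genes at each size, 20% were recovered at a log2 change of 0.5, 90% at 1, 96% at 2 and 100% at 4, with 7 false calls among 160. Far fewer genes were changed there than were called here (2673 lower and 2550 higher), and its arrays had no shared shifts. These rates therefore need not hold for the calls above. The number of arrays limits the precision.

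Each member is named. The value in every array is given for the 3 members of each step with the largest change and for each one not called, and of the other replication genes the 3 called ones of each list with the largest change and each one that rose are named. The members, lists and rules were chosen with earlier results of these data known. Motifs were searched as letters on both strands, in all promoters of the RefSeq table (32851 promoters of 27025 genes). Promoters of Pole, Gins2, Gmnn, Prim2, Gins1 and Mcm4 were not used here. Alternatives changed the replicate block, the scaling, the filter on dim genes, the choice of probe set and the test, or left out each array in turn, where the lone array of a group is assumed to vary like the other group. Plots were made in matplotlib 3.10.9 on Python 3.11.15.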

Additional observations from a re-analysis of the deposited data

How the results depend on the processing

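Across all genes the replicate differences of p53 off and p53 on correlated at r = -0.154, so the numbers were not taken to pair the samples. Over the members same-numbered samples did deviate the same way, with replicate 2 above replicate 1 in 33 of 38 with p53 off and 32 of 38 with p53 on, and the replicate block lowered the SE of Rfc5 from 0.15 to 0.08 and that of Tk1 from 0.19 to 0.09. With the replicate block, 27 members were called, the same genes as without it, and 2296 genes fell and 2027 rose. A crossed pairing, added after the data were seen, called 21 members lower, with 1970 genes lower and 1984 higher, and lost Gmnn, Prim1, Pcna, Rfc3, Rfc5 and Lig1 and, of the other replication genes named, Dscc1 (adjusted p = 0.0772), Gins4 (0.0791) and Mcm9 (0.08). The cause of the changes below was not tested.

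Leaving out 1 array at a time gave 13 to 27 members lower, 13 to 30 other replication genes lower and 0 to 5 higher, and 1135 to 2711 genes lower and 1093 to 2573 higher. The lowest counts came without p53 off replicate 2, and without p53 off replicate 1 the counts of other replication genes were 17 lower and 1 higher. Requiring a change of at least 1 left 7 members and 4 other replication genes lower, 0 of the latter higher, and 464 genes lower and 496 higher. At adjusted p under 0.01 there were 18 members lower, 14 other replication genes lower and 1 higher, and 1341 genes lower and 1267 higher. Spike-in scaling moved the median of all genes by 0.13, turned the split of higher against lower genes from 2550 against 2673 to 4421 against 1892, and called 5 other replication genes higher, while 26 members still fell. Median centring gave 2137 higher against 3386 lower and 28 members lower. With the mean of all probe sets 0 other replication genes rose.

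The changes that turned sign were near zero with the brightest probe set, except those of Pole2 (-0.15) and Dut (-0.97). That of Dut was 0.12 on its other probe set. Spike-in scaling gave 0.10 for Orc1, 0.11 for Fen1 and 0.13 for Chaf1b. Quantile normalization gave -0.023 for Cdc45 and 0.056 for Fen1, median centring -0.055 for Cdc45, and the mean of all probe sets -0.37 for Cdc45 and -0.024 for Tyms. Leaving out 1 array gave -0.074 to 0.016 for Orc1, -0.048 to 0.076 for Cdc45, -0.35 to 0.047 for Pole2, -0.055 to 0.012 for Fen1, -0.065 to 0.24 for Tyms and -0.14 to 0.13 for Chaf1b. Over all members and alternatives, 480 values kept their direction and side of the threshold. With the direction kept, 30 lost a call and 3 gained one. The other 18 turned sign, among them Dut, which also lost its call, and Cdc45, which also gained one with probe sets averaged.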

Other observations

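Replicates of a group differed in a shared direction over the members. With p53 off, replicate 2 read above replicate 1 in 33 of 38 members, with a median difference of 0.17, and over all genes it did so in 48% with a median of -0.0062. With p53 on, replicate 2 read above replicate 1 in 32 of 38 members, also with a median difference of 0.17, against 60.2% of all genes with a median of 0.04. Relative to the p53 off mean, the members' median was -0.09 and 0.09 in the p53 off samples and -0.79 and -0.57 in the p53 on samples. Of the 38 members, 31 read lower in p53 on replicate 1 than in both p53 off samples, and 32 did so in p53 on replicate 2.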
